A study of Homo sapiens with 6 samples.

Results

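The genes described here encode the phosphatidylinositol transfer proteins (PITPs), the protein family that the study's title connects with phosphoinositides and the Hippo pathway. Its 6 members, PITPNA and PITPNB of class I and PITPNC1, PITPNM1, PITPNM2 and PITPNM3 of class II, were taken by symbol from 60676 Ensembl gene IDs. RNA was sequenced from HEK293A, a subclone of the embryonic kidney cell line HEK293 that attaches well to culture plates, after 2 h with 20 nM VT01454 (3 libraries) or after 2 h with the vehicle DMSO (3 libraries). VT01454 is known here by its code name. The libraries held 28880374, 25066990 and 24646466 counts with VT01454 and 20962083, 19126039 and 26879796 with vehicle. All 6 come from 1 cell line, and nothing in the labels says that the libraries of a group were separate cultures. The p-values therefore refer to the spread between these libraries, part or all of which may be technical.

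PITPs carry single lipid molecules between membranes. The class I proteins exchange phosphatidylinositol for phosphatidylcholine, which lets the kinases at the Golgi and plasma membrane make phosphoinositides from lipid synthesised in the endoplasmic reticulum (ER). Class II proteins that have the lipid transfer domain also bind phosphatidic acid. The membrane-associated ones among them return it to the ER at contact sites after phospholipase C has used up phosphoinositides at the plasma membrane.

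The class I genes lie on chromosome 17 (PITPNA, 1517718 to 1562816, minus strand) and chromosome 22 (PITPNB, 27851669 to 27920134, minus strand), in hg38 coordinates of GENCODE release 29. PITPNC1 lies on chromosome 17 (67377281 to 67697261, plus strand), PITPNM1 on chromosome 11 (67491768 to 67506263, minus strand), PITPNM2 on chromosome 12 (122983480 to 123150015, minus strand) and PITPNM3 on chromosome 17 (6451264 to 6556494, minus strand). The longest annotated coding sequences were 810 bases for PITPNA and 819 bases for PITPNB, which were 72.2% identical over 808 aligned bases. PITPNC1 had 996 coding bases, PITPNM1 3732, PITPNM2 4047 and PITPNM3 2922. Coding sequences of the membrane-associated genes were 70.7% to 74.2% identical to each other. No stretch of 50 bases was shared between the annotated transcripts of different members, so a read of that length or longer that matched exactly could belong to only 1 of the members.

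The stretches of 250 bases upstream of the RefSeq starts of both class I genes (build GRCh38.p14) are shown because PITPNA and PITPNB make up most of the family's transcript level. Capitals mark matches, on either strand, to the cAMP response element TGACGTCA or its half-site TGACG. The PITPNA sequence is chr17:1562793-1563042 and the PITPNB sequence is chr22:27919257-27919506, each printed 5′ to 3′ on the minus strand. The PITPNB window lies wholly within the GENCODE span of the gene, whose 5′ end is at 27920134 and which has 11 annotated transcript starts.
PITPNA: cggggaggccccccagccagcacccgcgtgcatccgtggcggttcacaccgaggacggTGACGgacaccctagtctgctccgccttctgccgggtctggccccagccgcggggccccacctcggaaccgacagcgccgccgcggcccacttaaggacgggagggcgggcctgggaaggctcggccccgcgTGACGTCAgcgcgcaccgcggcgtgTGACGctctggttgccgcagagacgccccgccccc
PITPNB: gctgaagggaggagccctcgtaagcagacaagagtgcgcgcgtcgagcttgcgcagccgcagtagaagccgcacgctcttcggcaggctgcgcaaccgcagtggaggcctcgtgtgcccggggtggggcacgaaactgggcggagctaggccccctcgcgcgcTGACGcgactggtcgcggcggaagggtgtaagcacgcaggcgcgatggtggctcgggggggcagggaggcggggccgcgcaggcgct
Both sequences were rich in G and C, at 75.6% for PITPNA and 72.0% for PITPNB, against a median of 58.0% over 35116 promoter entries of the same length. PITPNA held the full cAMP response element, found in 1.65% of all entries, 60 bases before its start. PITPNB held the half-site, found in 21.2% of all entries (the half-site lies within the full element). Neither sequence held GGAATG, the core bound by TEAD factors (11.9% of all entries), the AP-1 element TGANTCA (6.57%), the EGR element GCGTGGGCG (0.720%) or a CArG box (1.16%). Among the other members, GGAATG was found in both listed promoters of PITPNM2, 31 and 139 bases before the starts. These matches describe the letters of these windows only.

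In the libraries PITPNB was the most abundant PITP transcript and PITPNA the next, both with VT01454 and with vehicle. Levels between genes are compared in CPM (counts scaled to a TMM-adjusted library total of 1e+06) per kb of exon. PITPNB, whose product is found largely at the Golgi and ER, stood at 41.4, 40.5 and 40.7 CPM per kb with VT01454, against 38.4, 38.7 and 41.7 with vehicle. PITPNA, which encodes the mostly cytosolic and nuclear class I protein, stood at 22.2, 21.0 and 20.8 CPM per kb with VT01454, against 22.3, 20.5 and 21.9 with vehicle. Every PITPNB value lay above every PITPNA value, and the per-length ratio of PITPNB to PITPNA was 1.86, 1.93 and 1.96 with VT01454, against 1.72, 1.88 and 1.90 with vehicle.

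PITPNM1 followed the class I genes in the order of levels. It encodes Nir2, which binds VAP proteins of the ER and works at contacts between the ER and the plasma membrane. Its level was 6.85, 6.11 and 6.67 CPM per kb with VT01454, against 6.80, 6.58 and 5.65 with vehicle, in all libraries below PITPNA and above the other class II genes on this scale.

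PITPNC1 and PITPNM2 were lower and could not be ordered beyond their spread on this scale, which uses the length of all exons of a gene. PITPNC1, which encodes the soluble class II protein, had 1.79, 1.81 and 2.03 CPM per kb with VT01454, against 1.69, 2.04 and 1.71 with vehicle. PITPNM2, which encodes Nir3, a relative of Nir2, had 1.88, 1.77 and 1.49 CPM per kb with VT01454, against 1.75, 1.32 and 1.65 with vehicle. The values of these genes overlapped in both groups.

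PITPNM3 was the least abundant member. It encodes Nir1, which lacks the lipid transfer domain of the other members. It stood at 0.172, 0.246 and 0.177 CPM per kb with VT01454, against 0.169, 0.148 and 0.129 with vehicle. Among 12948 tested protein-coding genes ranked by mean CPM per kb over all libraries, PITPNB was at place 1101, PITPNA at 2212, PITPNM1 at 5879, PITPNC1 at 9168, PITPNM2 at 9392 and PITPNM3 at 12242.

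**Figure D1:**
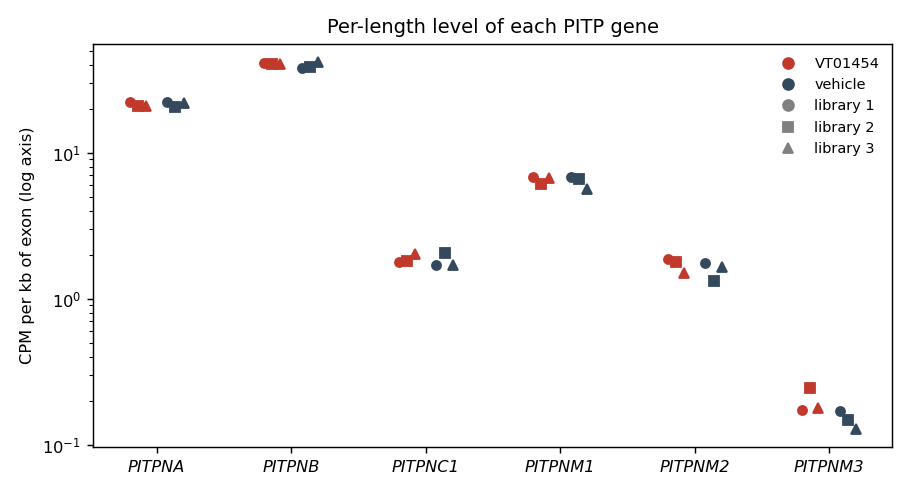
Per-length level (CPM per kb of exon, log axis) of each PITP gene in each library, VT01454 in red and vehicle in dark blue, with the symbol giving the library number. PITPNB lies highest in all 6 libraries and PITPNM3 lowest, while PITPNC1 and PITPNM2 overlap on this scale.

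As a share of the family's summed per-length level, class I made up 85.8% ± 0.295 with VT01454 and 86.1% ± 1.18 with vehicle (SD, n = 3 each). The membrane-associated class II genes made up 11.7% ± 0.307 with VT01454 and 11.4% ± 1.05 with vehicle, and PITPNC1 2.59% ± 0.218 and 2.56% ± 0.338. PITPNB alone held 56.3% ± 0.561 with VT01454 and 55.7% ± 1.67 with vehicle, and PITPNA 29.4% ± 0.496 and 30.4% ± 0.895. No share differed between the groups beyond the spread of the libraries. The exact two-sided permutation test gave p = 0.2 for PITPNA and for PITPNM3 (adjusted over the 6 genes, 0.6) and p = 0.5 to 1 for the others, where 3 against 3 libraries cannot give less than 0.1. The shares rest on the exon length used: with the length of the transcript that has the longest coding sequence, an alternative added after the data were seen, PITPNB held 79.9% with VT01454 and 79.6% with vehicle, PITPNA 10.1% and 10.5%, and PITPNC1, at 5.07% and 5.04%, stood above PITPNM1 at 3.87% in both groups and above PITPNM2, at 0.904% with VT01454 and 0.854% with vehicle. That transcript is 1017 bases long for PITPNB and 1124 for PITPNC1, so it holds few untranslated bases of either gene.

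None of the 6 PITP transcripts changed after 2 h with VT01454 in edgeR's quasi-likelihood test at a Benjamini-Hochberg adjusted p below 0.05, against 1.89% called among all 15577 genes tested. None had an unadjusted p below 0.05 either, against 14.4% of all tested genes, and none was called by limma-voom or by DESeq2, which gave PITPNM3 no adjusted p. All 6 had passed the filter on low counts. The median log2 fold change of the members was 0.050, beside -0.0073 over all tested genes, and 5 of 6 estimates were above 0. The median size of the change, without its sign, was 0.050 for the members and 0.11 for all tested genes. These sets were not matched for abundance, so the sizes do not show that the members were steadier than genes of like abundance.

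The class I genes had the narrowest intervals. PITPNA had 3030, 2502 and 2433 counts with VT01454, against 2263, 1883 and 2838 with vehicle. It averaged 102 ± 3.71 CPM with VT01454 and 103 ± 4.44 CPM with vehicle (SD, n = 3 each), and its 3 values with VT01454 (106, 101 and 99.4 CPM) lay inside the range of the vehicle libraries (107, 98.3 and 105 CPM). The log2 fold change was -0.017 ± 0.060 (SE, adjusted p = 0.923), and the 95% interval of the fold change ran from 0.903 to 1.08.

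PITPNB had 6045, 5174 and 5104 counts with VT01454, against 4175, 3799 and 5795 with vehicle. It averaged 209.5 ± 2.29 CPM with VT01454 and 203 ± 9.43 CPM with vehicle. Its 3 values with VT01454 (212, 208 and 209 CPM) lay above vehicle libraries 1 and 2 (197 and 198) and below vehicle library 3 (214). The log2 fold change was 0.045 ± 0.056 (adjusted p = 0.746), with a fold change of 0.949 to 1.12 in the 95% interval.

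Among the class II genes PITPNC1, with 398, 353 and 389 counts with VT01454 and 280, 306 and 362 with vehicle, averaged 14.7 ± 1.06 CPM and 14.2 ± 1.55 CPM. Vehicle library 2 (16.0 CPM) was its highest value and vehicle library 1 (13.2 CPM) its lowest, so the VT01454 libraries lay inside the vehicle range. Its log2 fold change was 0.053 ± 0.10 (adjusted p = 0.843, 95% interval of the fold change 0.890 to 1.21).

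PITPNM1 had 1259, 981 and 1053 counts with VT01454, against 930, 813 and 988 with vehicle. It averaged 42.2 ± 2.49 CPM with VT01454 and 40.9 ± 3.93 CPM with vehicle, and vehicle library 3 was lowest at 36.5 CPM. Its log2 fold change was 0.048 ± 0.083 (adjusted p = 0.824, 95% interval of the fold change 0.913 to 1.17), and it stood at -0.033 without that library.

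PITPNM2 had 490, 404 and 335 counts with VT01454, against 340, 232 and 409 with vehicle, and averaged 15.7 ± 1.81 CPM and 14.4 ± 2.05 CPM. Its log2 fold change was 0.12 ± 0.12 (adjusted p = 0.675, 95% interval of the fold change 0.910 to 1.301). Vehicle library 2 was lowest at 12.1 CPM, and the log2 fold change stood at 0.017 without it.

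**Figure D2:**
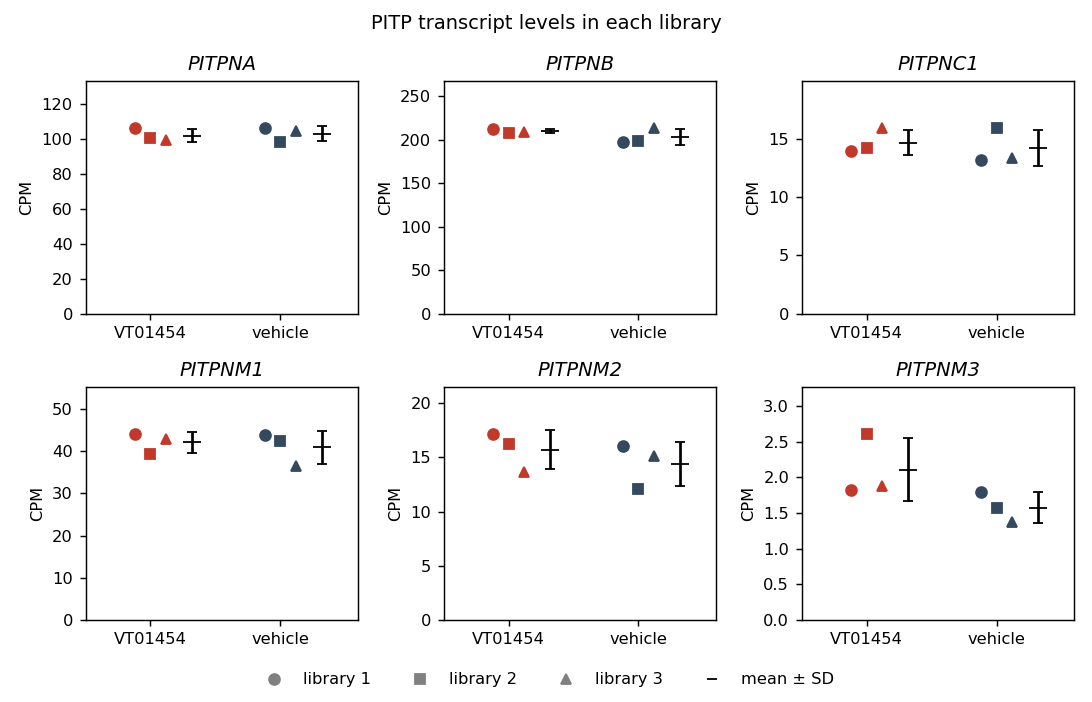
CPM of each PITP gene in each library, with VT01454 on the left and vehicle on the right of each panel, symbols for the 3 libraries of a group and the mean ± SD beside them; the scale differs between panels and starts at 0. The groups overlap for every gene but PITPNM3, whose lowest VT01454 value is 1.82 CPM and highest vehicle value 1.79 CPM.

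PITPNM3 had the largest estimate and the widest interval. Its 52, 65 and 46 counts with VT01454 and 38, 30 and 37 with vehicle gave 1.82, 2.61 and 1.88 CPM with VT01454, against 1.79, 1.57 and 1.37 CPM with vehicle. The groups did not overlap, by a gap of 1.82 to 1.79 CPM, which was also so for 21.1% of all tested genes. The log2 fold change was 0.42 ± 0.23 (adjusted p = 0.428), and the 95% interval of the fold change, 0.949 to 1.89, includes 1. Without VT01454 library 2, its highest, the log2 fold change was 0.24. Exons of PITPNM3 overlap those of PIMREG, a gene on the opposite strand, over 206 untranslated bases. PIMREG stood at 40.5, 41.8 and 43.3 CPM with VT01454, against 42.4, 45.5 and 39.3 CPM with vehicle, a log2 fold change of -0.016 ± 0.073 (adjusted p = 0.940). The strand setting of the counting is not given, and what PIMREG reads add to PITPNM3 was not tested.

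**Figure D3:**
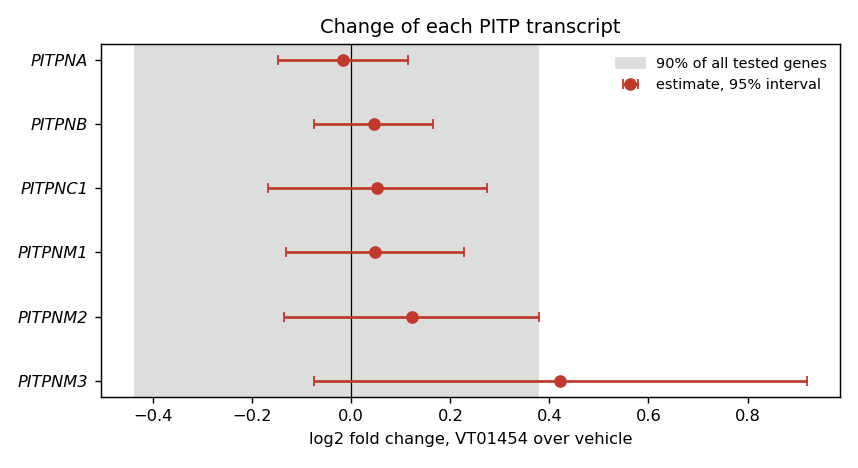
Log2 fold change of VT01454 over vehicle for each PITP gene with its 95% interval, over a grey band that holds 90% of all tested genes (-0.44 to 0.38). All 6 intervals include 0, and the interval of PITPNM3 is the widest.

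Of the other members, PITPNA shares 379 untranslated exon bases with the antisense gene PITPNA-AS1, which had 1, 0 and 3 counts with VT01454 and 1, 0 and 2 with vehicle. PITPNB shares 156 untranslated exon bases with TTC28-AS1 on the opposite strand, at 190, 178 and 216 counts with VT01454, against 182, 190 and 283 with vehicle. The log2 fold change of TTC28-AS1 was -0.36 ± 0.13 (adjusted p = 0.236). PITPNM2-AS1, which lies inside PITPNM2 with no exon in common, was at 0 in 5 libraries and had 2 counts in vehicle library 3. Stretches of 50 bases shared with another gene made up 6.46% of those of PITPNA, 2.07% of PITPNB, 1.47% of PITPNM3, 0.582% of PITPNC1 and 0.253% of PITPNM1, and PITPNM2 had none.

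The most abundant members varied least between libraries. The coefficient of variation of PITPNB was 1.09% with VT01454 and 4.64% with vehicle, and that of PITPNA 3.63% and 4.30%. The median over the 500 genes nearest in CPM was 2.02% and 6.80% for PITPNB and 2.39% and 6.83% for PITPNA. PITPNM2 varied more, at 11.5% and 14.2%, where its 500 neighbours had 5.76% and 9.17%. The vehicle libraries as a whole were farther apart than the VT01454 libraries: chi-square per degree of freedom between pairs ran from 2.03 to 2.79 with VT01454 and from 7.88 to 20.1 with vehicle, and no pair agreed within sampling noise. Of markers of HEK293, NEFL was high (682 CPM with VT01454 and 676 with vehicle) and CDH2 was at 132 and 119 CPM, whereas PAX2 was at 0.420 and 0.518 CPM and LHX1 had at most 3 counts in any library. PTPRC and CD3E, which define leukocytes, were at 0 in every library.

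For each member the protein-coding genes of at least 10 CPM whose log2 CPM followed it most closely over the 6 libraries were looked up among 9138 genes by Pearson's r, as a description. PITPNB was followed by EHHADH (r = 0.995), and PITPNA by SUGT1 (0.983) and ALAD (0.970). PITPNC1 was followed by CTDNEP1 (0.992) and ADK (0.984), and PITPNM1 by POMT2 (0.987) and POMGNT2 (0.973). PITPNM2 was followed by HK2 (0.981) and BCORL1 (0.974), and PITPNM3 by BACE1 (0.985) and ST3GAL4 (0.968). None of the genes named was called changed.

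Beside the PITPs, 6 lists of 90 genes for partner and related functions were read from the same fit. Of 73 tested members, 1 was called changed and 8 had an unadjusted p below 0.05, against 1.89% called and 14.4% at an unadjusted p below 0.05 among all tested genes. The median log2 fold change of the 73 was 0.025. The called gene was CERT1, which encodes the ceramide transfer protein. That protein carries ceramide from the ER to the Golgi and binds the phosphoinositide PI4P there and VAP proteins on the ER. CERT1 (chromosome 5, 75356345 to 75512138) stood at 82.7, 83.0 and 80.2 CPM with VT01454, against 60.6, 52.0 and 63.8 CPM with vehicle, so that every VT01454 library lay above every vehicle library. It rose by a log2 fold change of 0.48 ± 0.08 (adjusted p = 0.00496). In RNA from whole cultures, more cells with the transcript and more of it per cell cannot be told apart. The adjusted p was 0.0520 without VT01454 library 2 and 0.0638 without vehicle library 1, and 2.90e-04 to 0.0435 without any other single library.

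CERT1 was the 1 of 13 tested genes in the list of StAR-related lipid transfer proteins to pass. The lipid-binding fold of StAR resembles that of the PITPs. The list's median was -0.081, 6 of 13 estimates were above 0, and DESeq2 and limma-voom also called 1. STARD7, a mitochondrial phosphatidylcholine carrier and the most abundant member by CPM, was at 278 ± 4.79 CPM with VT01454 and 261 ± 12.8 CPM with vehicle (log2 fold change 0.091 ± 0.056, adjusted p = 0.487). Of 11 Sec14-like genes, which encode a separate fold of lipid carriers, 3 were abundant enough to test, and none passed or had an unadjusted p below 0.05. The log2 fold changes were -0.17 ± 0.08 for TTPAL, 0.30 ± 0.16 for SEC14L2 and -0.036 ± 0.060 for SEC14L1 (adjusted p = 0.350, 0.421 and 0.818).

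Listed transcripts of kinases that PITPs supply did not pass either. Of 19 genes for phosphatidylinositol 4-kinases, phosphatidylinositol phosphate kinases and their adaptors, all were tested and none passed. Of these, 2 had an unadjusted p below 0.05 (14.4% of all tested genes), and the list's median was 0.042. CPM of the groups did not overlap for 8 of the 19, against 21.1% of all tested genes. PI4KA, the plasma membrane phosphatidylinositol kinase, stood at 132 ± 0.942 CPM with VT01454 and 122 ± 6.82 CPM with vehicle (log2 fold change 0.11 ± 0.06, adjusted p = 0.403). PIP5K1A, which makes PI(4,5)P2 from PI4P, was at 206, 197 and 202 CPM with VT01454, against 182, 182 and 183 CPM with vehicle (0.15 ± 0.05, adjusted p = 0.221). HYCC1 and TTC7B, adaptors of PI4KA, had log2 fold changes of 0.23 ± 0.08 and 0.14 ± 0.07 (adjusted p = 0.198 and 0.368). HYCC1 passed without vehicle library 3 (adjusted p = 0.00442), where the number of all genes called was 1806 in place of 294, and its log2 fold change was 0.16 without vehicle library 2 (adjusted p = 0.234).

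Phosphatidylinositol is rebuilt from phosphatidic acid by CDS enzymes and CDIPT, with diacylglycerol kinases supplying the acid. Of these 14 genes 11 were tested and none passed, with 1 at an unadjusted p below 0.05 (14.4% of all tested genes) and a median of -0.041. CDIPT, the phosphatidylinositol synthase, was at 54.5 ± 2.60 CPM with VT01454 and 61.0 ± 8.09 CPM with vehicle (log2 fold change -0.16 ± 0.09, adjusted p = 0.439). Its log2 fold change was -0.25 without vehicle library 3 (adjusted p = 0.0352) and -0.056 without vehicle library 2 (adjusted p = 0.778). TAMM41, a mitochondrial CDP-diacylglycerol synthase, stood at 0.34 ± 0.13 (adjusted p = 0.258), and the diacylglycerol kinases DGKQ and DGKZ at -0.17 ± 0.09 and -0.041 ± 0.061 (adjusted p = 0.394 and 0.796).

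Phospholipase C enzymes cleave PI(4,5)P2 and create the demand for phosphatidylinositol transfer. Of 15 genes 13 were tested and none passed, with 3 at an unadjusted p below 0.05 (14.4% of all tested genes) and a median of 0.035. PLCL1, a catalytically inactive relative, was at 1.40 ± 0.288 CPM with VT01454 and 0.864 ± 0.0894 CPM with vehicle (log2 fold change 0.69 ± 0.27, adjusted p = 0.265), and PLCB2 stood at -0.61 ± 0.26 (adjusted p = 0.306). PLCB4 was at 0.27 ± 0.12 (adjusted p = 0.333), at 0.43 without vehicle library 3 (adjusted p = 0.0214) and at 0.15 without vehicle library 2 (adjusted p = 0.546). The more abundant PLCG1 and PLCB3 had log2 fold changes of -0.12 ± 0.07 and 0.015 ± 0.073 (adjusted p = 0.439 and 0.944).

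Of 15 genes for ER contact sites 14 were tested and none passed, with 1 at an unadjusted p below 0.05 (14.4% of all tested genes) and a median of 0.064. VAPA and VAPB are the ER anchors that Nir2 binds. VAPA was at 187 ± 3.45 CPM with VT01454 and 175 ± 7.97 CPM with vehicle, and VAPB at 115 ± 1.81 CPM and 126 ± 7.15 CPM. CPM of the groups did not overlap for 6 of the 14, VAPA and VAPB among them, against 21.1% of all tested genes. The log2 fold changes were 0.091 ± 0.056 for VAPA (adjusted p = 0.489) and -0.13 ± 0.06 for VAPB (adjusted p = 0.344). The tether gene ESYT1 stood at 0.053 ± 0.050, ESYT3 at -0.35 ± 0.17 and MOSPD1 at -0.15 ± 0.08 (adjusted p = 0.666, 0.381 and 0.400). DESeq2 and limma-voom called none in the Sec14-like, kinase, resynthesis, phospholipase C and contact site lists.

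**Figure D4:**
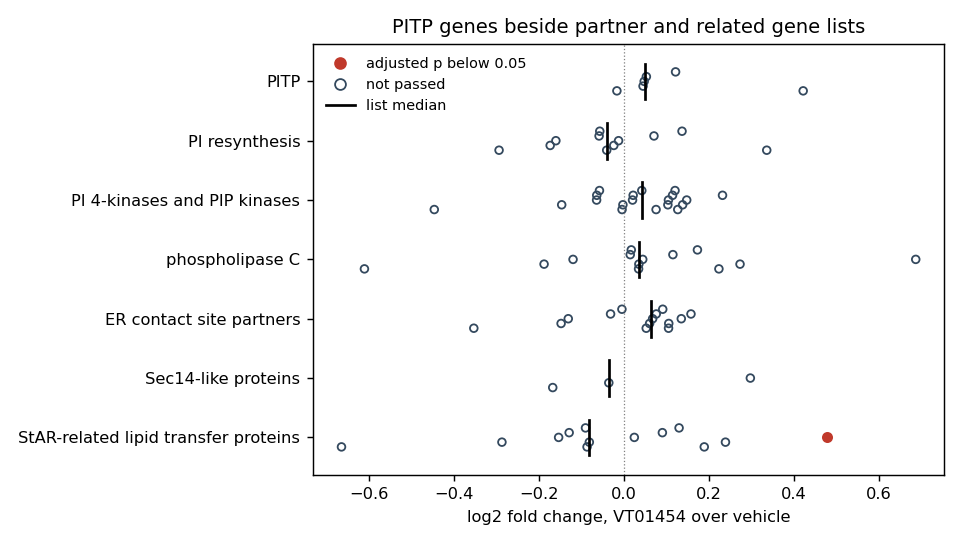
Log2 fold change of VT01454 over vehicle for each tested gene of the PITP family and of 6 partner and related lists, with a black bar at each median and filled red points for an adjusted p below 0.05. The filled point is CERT1 at 0.48, and the medians lie between -0.081 and 0.064.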

How the data were processed

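The authors deposited unnormalized read counts by Ensembl gene ID, with 1 file for each library. HISAT2 2.2.1, HTSeq 0.9.1 and the build hg38 are named in the submitters' processing notes. Neither the annotation release nor the strand setting is given in the sources used here. A symbol other than the ID itself was found for 42009 of 60676 IDs, and GENCODE release 29 gave coordinates and exon lengths. Total counts ran from 19126039 to 28880374, so 1 count was worth 0.0346 to 0.0523 CPM.

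Counts were tested with edgeR 4.0.16 in R 4.3.3 (filterByExpr, TMM, robust quasi-likelihood F-test, two-sided), with Benjamini-Hochberg adjustment over all tested genes and a threshold of 0.05. The standard error is the log2 fold change over the square root of F. The fit was tested on simulated counts for VT01454 against vehicle, over 15342 genes. Recovery was 42% for genes changed 1.3-fold, 78% for 1.5-fold, 96% for 2-fold and 100% for 3-fold, with 11 false calls among 169. Changed genes were drawn from those with a mean of at least 50 counts, so these rates do not cover rarer transcripts such as PITPNM3. The simulation drew the libraries independently and gave each gene the same dispersion in both groups. In the data the vehicle libraries were farther apart than the VT01454 libraries, so these rates may not hold for the data. DESeq2 1.42.0 and limma-voom (limma 3.58.1), other scalings and filters, a replicate block and leaving out each library were alternatives.

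The members and lists were chosen with earlier results of these data known. All PITP genes are named. From each other list the called members, or else the 3 with the smallest p, are named with the 2 most abundant. Of 96 list entries 95 matched a gene ID. Protein sequences were not used here, and some genes that these rules select are not reported here.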

Additional observations from a re-analysis of the deposited data

How the results depend on the processing

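No PITP gene was called under any of the 13 alternative fits, though DESeq2 gave PITPNM3 no adjusted p. The number of changed genes was 713 without a count filter and ran from 93 to 1806 when 1 library was left out, the largest without vehicle library 3. Leaving out 1 library at a time turned the sign of small estimates, with log2 fold changes of -0.049 to 0.0086 for PITPNA, -0.0041 to 0.14 for PITPNC1, -0.033 to 0.10 for PITPNM1, -0.087 to 0.0038 for DGKZ and -0.045 to 0.062 for PLCB3. PLCB3 also stood at -0.0089 with library size alone. The differences in share, VT01454 minus vehicle, ran in the same way from -0.23 to 1.44 percentage points for PITPNB, -0.086 to 0.23 for PITPNC1, -0.51 to 0.39 for PITPNM1 and -0.0014 to 0.29 for PITPNM2, and that of PITPNM1 was -1.3e-04 with the length of 1 transcript per gene. Called members were 0 to 1 in the resynthesis, kinase, phospholipase C and StAR-related lists when 1 library was left out, and 1 kinase gene was called without a count filter. The cause of these shifts was not tested. Over genes with a mean of at least 10 CPM, same-numbered libraries did not deviate together (r = -0.12, -0.13 and 0.046 for numbers 1, 2 and 3). No library correlated best with its own number. With the replicate block 339 genes were called, none of them a PITP gene, with log2 fold changes of -0.016 for PITPNA, 0.046 for PITPNB and 0.40 for PITPNM3. Depth limits PITPNM3 most, at 30 to 65 counts per library.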
